A study of Mus musculus with 14 samples.

Results

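Potassium channel genes were taken from left ventricular RNA-seq of mice as the rows of the count table whose symbol starts with Kcn. Of 99 such rows, 57 had at least 10 counts in at least 2 libraries and were kept as members, and 56 of these passed the filter of the test, Kcns1 being the exception. The other 42 rows were left out, and 10 of them had no count in any library. The 57 genes were grouped by the current they carry or modulate: 6 transient outward, 14 delayed rectifier, 8 inward rectifier, 2 KATP, 6 two-pore, 7 calcium- and sodium-activated and 12 auxiliary genes, and 2 transcripts that encode no channel subunit.

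The libraries came from male mice of 2 genotypes and 2 operations. WT mice carried the normal Hcn4 gene, and HCN4F mice carried a knock-in allele in which a tyrosine of the pacemaker channel HCN4 is replaced by phenylalanine, a gain-of-function exchange encoded in exon 4. The operation at 10 to 12 weeks of age was either transverse aortic constriction (TAC), a narrowing of the aorta that loads the left ventricle with pressure, or a Sham operation, and hearts were analysed 5 weeks later. Analysed here were 4 WT-Sham, 4 HCN4F-Sham, 2 WT-TAC (replicates 2 and 3) and 4 HCN4F-TAC libraries, which the study describes as biological replicates. In the main fit, each p-value rests on the spread between animals within groups, estimated over all 14 libraries together. The comparisons ask how TAC changed the channel genes in each genotype, how the genotypes differed after each operation, and whether the TAC responses of the genotypes differed.

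Potassium channels let potassium leave the cardiomyocyte and so end the action potential and hold the resting potential. In the mouse ventricle, transient outward and rapidly activating delayed rectifier currents dominate repolarisation, inward rectifiers set the resting potential, KATP channels couple it to metabolism, and two-pore channels carry background current. Auxiliary subunits change the trafficking and gating of the pore-forming subunits. Loss of transient outward and inward rectifier current is a known feature of the hypertrophied and failing heart.

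The libraries held between 22309914 and 35210939 counts (median 27676182). Values below are CPM, counts scaled by TMM to a common library size, and levels of different genes are compared only as CPM per kb of annotated exon. The ventricular cardiomyocyte list (Myl2, Myh6, Tnni3, Tnnt2, Actc1, Ryr2) was abundant in every library, with a summed level of 64707 to 67083 CPM in WT-Sham, 56876 to 60289 CPM in HCN4F-Sham, 59855 to 60005 CPM in WT-TAC and 47968 to 54096 CPM in HCN4F-TAC. HCN4F-TAC replicate 2 stood apart from the other libraries in atrial myocyte markers, whose summed level was 31.1 CPM there and 1.24 to 5.04 CPM elsewhere. Of the 4 atrial markers, Myl4 and Myl7 made up most of this sum, and Sln and Bmp10 were at 0 counts in 10 and 11 of the 14 libraries. The knock-in exchanges a codon, which gene counts do not show, so the Hcn4 level (3.49 to 13.5 CPM over all libraries) does not check the genotype labels.

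A feature that the choice by name did not use is the selectivity filter, the short pore loop that strips water from potassium and that most often reads glycine-tyrosine-glycine. A match was this triplet, or its variant with phenylalanine in the middle, in frame and with threonine or serine next but one before it. It was found in 46 of the 55 members with a complete coding transcript, 37 with tyrosine and 9 with phenylalanine. Every member of the 6 pore-forming classes had a match, and 4 of the 6 two-pore genes had more than 1. Among the 12 auxiliary genes only 3 had a match. Shown here are the 48 coding bases around the filter of the 6 genes called in the main comparison, read from the GENCODE transcripts on GRCm38, 5′ to 3′ on the coding strand, with the filter codons in capitals.
Kcna1: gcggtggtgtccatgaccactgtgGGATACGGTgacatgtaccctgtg
Kcna2: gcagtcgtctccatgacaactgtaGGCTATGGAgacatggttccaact
Kcna6: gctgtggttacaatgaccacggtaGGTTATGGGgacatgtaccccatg
Kcnv2: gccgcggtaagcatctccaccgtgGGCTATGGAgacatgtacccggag
Kcnj14: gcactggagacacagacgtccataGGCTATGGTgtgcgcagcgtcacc
Kcnj6: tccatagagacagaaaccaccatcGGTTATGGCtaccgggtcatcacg

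These lie at chr6:126642213-126642260 on the minus strand for Kcna1, chr3:107105206-107105253 on the plus strand for Kcna2, chr6:126738632-126738679 on the minus strand for Kcna6, chr7:45819618-45819665 on the minus strand for Kcnj14 and chr16:94832762-94832809 on the minus strand for Kcnj6, each within 1 coding exon. The Kcnv2 stretch joins 2 coding exons between 27324152 and 27333683 on the plus strand of chromosome 19. The voltage-gated subunits share more of these bases with each other than with the inward rectifiers: Kcna1 had 77.1% of the 48 bases in common with Kcna6, 72.9% with Kcnv2 and 68.8% with Kcna2, but 43.8% with Kcnj14 and 45.8% with Kcnj6. Kcnj14 and Kcnj6 shared 60.4%.

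Levels spanned a wide range. The mean over all 14 libraries was 10 CPM or more for 16 members and under 1 CPM for 19. Kcnk3, which encodes the two-pore background channel TASK-1, had the highest level per length, 102 CPM per kb, and made up 27.4% of the summed level of all members. Kcng2, a silent voltage-gated subunit that works only in complexes with other subunits, followed with 57.1 CPM per kb, Kcnip2, the KChIP2 partner of the transient outward channels, with 45.6 CPM per kb, and Kcnj11, the Kir6.2 pore of the KATP channel, with 44.8 CPM per kb. These 4 genes held 66.9% of the summed level. Next in order were Kcna5 (18.9 CPM per kb, an ultrarapid delayed rectifier), Kcnj8 (18.5 CPM per kb, the Kir6.1 pore), Kcnh2 (14.4 CPM per kb, the rapid delayed rectifier ERG), Kcnj5 (9.95 CPM per kb) and Kcnq1 (9.71 CPM per kb, the slow delayed rectifier).

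**Figure D1:**
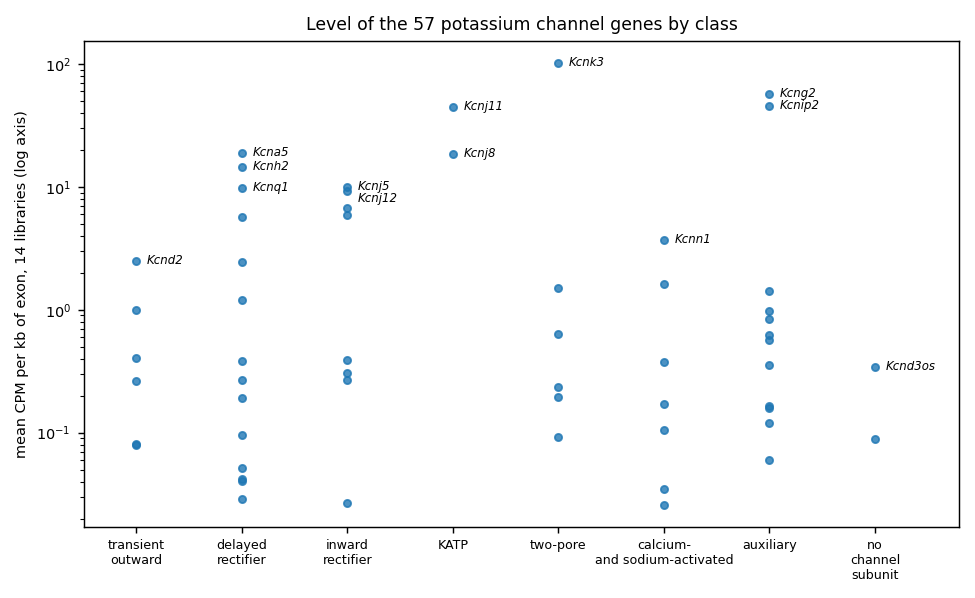
Mean CPM per kb of exon over the 14 libraries (log axis) for each of the 57 potassium channel genes, 1 point per gene, in columns by class. Kcnk3 lies highest at 102 CPM per kb, and the highest transient outward gene, Kcnd2, lies at 2.52 CPM per kb.

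Within classes the levels were uneven. Kcnd2, the main transient outward pore of the mouse ventricle, had 2.52 CPM per kb and Kcnd3 had 1.00 CPM per kb, and the ratio of these levels was between 1.75 and 3.56 in every library. Among the inward rectifiers that carry the resting current, Kcnj12 had 9.31 CPM per kb and Kcnj2 had 6.71 CPM per kb, a ratio of Kcnj2 to Kcnj12 of 0.390 to 1.03 over the libraries, above 1 in HCN4F-Sham replicate 3. Kcnn1 was the highest calcium-activated gene (3.68 CPM per kb), above Kcnn2 (1.61 CPM per kb), while Kcnma1, the large-conductance channel, was among the lowest members (0.026 CPM per kb). Kcna4 (0.26 CPM per kb) and Kcne1 (0.85 CPM per kb), the subunit that slows Kcnq1 channels, were low as well.

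TAC in HCN4F mice was the 1 comparison in which potassium channel genes passed the edgeR test. Transcripts of the neuronal-type channels Kcna1, Kcna2 and Kcna6 and of the silent subunit Kcnv2 fell to between 0.278 and 0.420 of their Sham level, and Kcnj14 rose 4.27-fold. The abundant Kcnh2, Kcnip2, Kcnj3, Kcnj5 and Kcnj2 fell by less, to between 0.569 and 0.763 of their Sham level. These are fitted fold changes. At an adjusted p under 0.05 and a log2 fold change past 1 in either direction, 6 of the 56 tested members were called (10.7%), 2 higher and 4 lower, beside 2.75% of all 15292 tested genes, of which 1.58% were called higher and 1.16% lower. At the adjusted p alone, 14 members passed (25%), 3 higher and 11 lower, beside 13.6% of all tested genes, of which 7.2% rose and 6.41% fell. Without overlap between the 4 TAC and the 4 Sham libraries, 2 members lay higher and 8 lower, beside 7.95% and 7.16% of all tested genes. The higher genes in these counts include Kcnj6, which met the count minimum only in the 4 HCN4F-TAC libraries, so that the choice of members favoured its rise. Without it, 5 members were called, 1 higher and 4 lower, and 13 passed the adjusted p alone. The median log2 fold change was -0.10 over the 56 members and -0.01 over all tested genes.

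**Figure D2:**
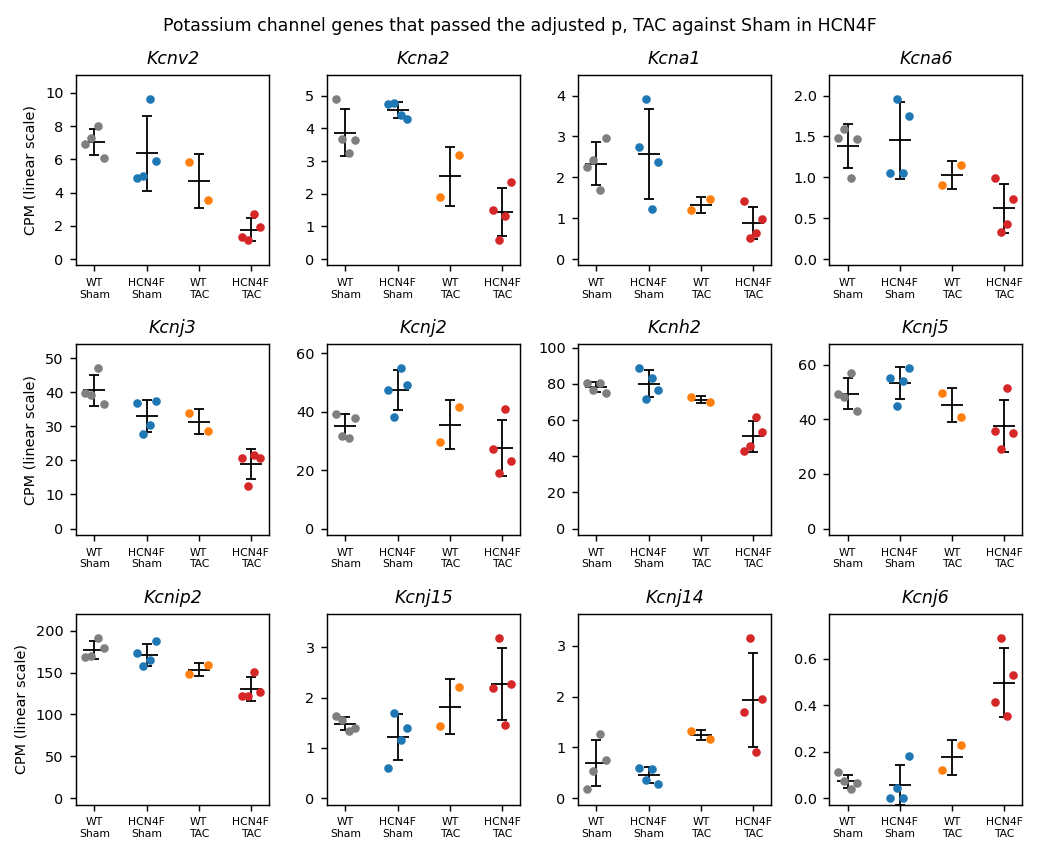
CPM (linear axis) of 12 of the 14 potassium channel genes that passed the adjusted p in HCN4F mice, 1 point per library, with the mean as a bar and the SD as error bars, in WT-Sham (n = 4), HCN4F-Sham (n = 4), WT-TAC (n = 2) and HCN4F-TAC (n = 4). The 9 shown that fell and the 3 that rose are ordered by fold change, from Kcnv2 (log2 fold change -1.84) to Kcnj6 (2.90).

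Among the delayed rectifiers, 5 of 14 members passed the adjusted p, all lower, 12 of 14 had a value below 0, and the class median was -0.13. The Kcna2 gene encodes Kv1.2, a channel best known from myelinated axons. Its libraries read 4.74, 4.79, 4.41 and 4.29 CPM in HCN4F-Sham and 1.49, 0.593, 1.31 and 2.36 CPM in HCN4F-TAC, against 4.92, 3.66, 3.25 and 3.66 CPM in WT-Sham and 1.89 and 3.18 CPM in WT-TAC. The HCN4F groups did not overlap, and both WT-TAC libraries lay below all WT-Sham libraries. Its log2 fold change with TAC was -1.68 (SE 0.27) in HCN4F (edgeR quasi-likelihood test with Benjamini-Hochberg adjustment, adjusted p = 0.00104) and -0.59 (SE 0.32) in WT (adjusted p = 0.293).

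Kcna1 encodes Kv1.1, which assembles with Kv1.2 in axons. It had 2.75, 3.93, 1.23 and 2.39 CPM in HCN4F-Sham, 1.41, 0.527, 0.636 and 0.976 CPM in HCN4F-TAC, 2.25, 2.43, 1.68 and 2.97 CPM in WT-Sham and 1.19 and 1.46 CPM in WT-TAC. HCN4F-Sham replicate 3 was low, so that the HCN4F groups overlapped by this 1 library. With TAC it changed by a log2 fold of -1.54 (SE 0.34, adjusted p = 0.00699) in HCN4F and -0.81 (SE 0.40, adjusted p = 0.248) in WT.

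Kcna6 encodes Kv1.6, another neuronal member of this family. Its values were 1.05, 1.96, 1.05 and 1.75 CPM in HCN4F-Sham, 0.995, 0.329, 0.424 and 0.732 CPM in HCN4F-TAC, 1.48, 1.60, 0.994 and 1.47 CPM in WT-Sham and 0.904 and 1.14 CPM in WT-TAC. Every HCN4F-TAC library was below every HCN4F-Sham library, although by a small margin. The log2 fold change was -1.25 (SE 0.32, adjusted p = 0.0144) in HCN4F and -0.42 (SE 0.36, adjusted p = 0.522) in WT, and without HCN4F-TAC replicate 2 the HCN4F value was -1.03 with an adjusted p of 0.0545, which ends the call. An antisense transcript, Gm26673, overlaps 39.6% of the Kcna6 exon bases but had 0 CPM.

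Kcna1 and Kcna6 are neighbours on chromosome 6, 61.9 kb apart, and Kcna5 lies 105 kb from Kcna1 in the same cluster. Kcna5 did not pass: its 4 libraries ranged from 40.3 to 56.6 CPM in HCN4F-Sham and from 42.4 to 56.2 CPM in HCN4F-TAC, with a log2 fold change of -0.02 (SE 0.13, adjusted p = 0.933).

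Markers of Schwann cells, the glia that wrap axons, moved with these 3 genes. The summed level of 3 Schwann markers (Mbp, Sox10, Cdh19) was 9.40 to 12.1 CPM in HCN4F-Sham, 3.52 to 6.76 CPM in HCN4F-TAC, 7.06 to 8.40 CPM in WT-Sham and 6.35 to 6.45 CPM in WT-TAC. All 3 passed the adjusted p with TAC in HCN4F, all lower, with a median log2 fold change of -1.05. The sum of Kcna1, Kcna2 and Kcna6 was lowest, 1.45 CPM, in HCN4F-TAC replicate 2, which also had the lowest Schwann sum. The autonomic neuron markers summed to 2.58 to 3.33 CPM in WT-Sham, 1.03 to 2.42 CPM in HCN4F-Sham, 0.487 to 1.44 CPM in WT-TAC and 0.664 to 0.954 CPM in HCN4F-TAC, with Th and Chrna3 at 0 in 10 and 12 libraries. Dbh, the only one tested, fell with TAC in both genotypes, by a log2 fold change of -1.25 (adjusted p = 0.0422) in HCN4F and -1.80 (adjusted p = 0.0308) in WT. In whole tissue, fewer cells of a type and less RNA per cell cannot be told apart, and the part that nerve tissue has in the Kcna1, Kcna2 and Kcna6 values was not tested.

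**Figure D3:**
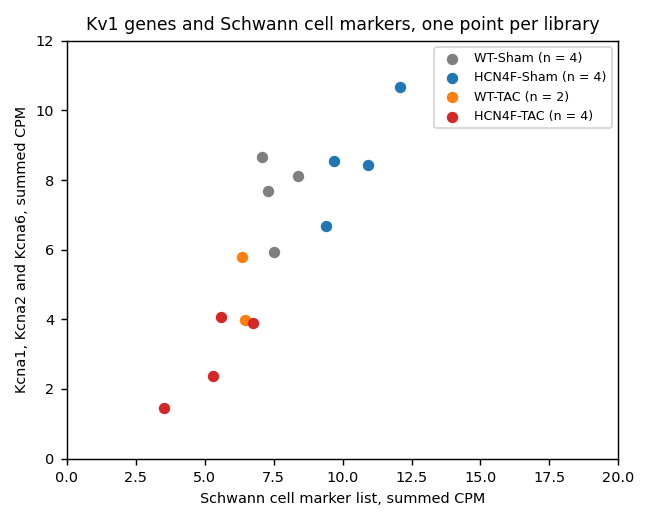
Sum of Kcna1, Kcna2 and Kcna6 (CPM, vertical axis) against the sum of 3 Schwann cell markers (CPM, horizontal axis), 1 point per library and colours by group. The 4 HCN4F-TAC libraries lie lowest on the Schwann axis but for 1 (6.76 CPM) that lies above both WT-TAC libraries, and HCN4F-TAC replicate 2 lies lowest on both axes (1.45 and 3.52 CPM).

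Kcnh2 encodes ERG, the pore of the rapid delayed rectifier, and was the most abundant delayed rectifier that fell. Its level was 88.7, 71.8, 83.2 and 76.6 CPM in HCN4F-Sham, 43.0, 45.8, 61.7 and 53.5 CPM in HCN4F-TAC, 80.6, 76.8, 80.5 and 74.8 CPM in WT-Sham and 72.5 and 70.1 CPM in WT-TAC. Every HCN4F-TAC library was below the other 10 libraries. The log2 fold change with TAC was -0.65 (SE 0.10, adjusted p = 0.000453) in HCN4F, which is 0.637 of the Sham level, and -0.13 (SE 0.12, adjusted p = 0.545) in WT.

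Kcnq1, the pore of the slow delayed rectifier, had a log2 fold change of -0.09 (SE 0.19, adjusted p = 0.794) with TAC in HCN4F and did not pass. Kcnq1 overlaps the antisense transcript Kcnq1ot1, and whether the counting used strand is not given in the sources used here.

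Of the 6 transient outward genes, 4 had a value below 0, with a class median of -0.13. Kcnd2 and Kcnd3, the pores of the fast transient outward current, did not pass. Kcnd2 ranged from 7.44 to 20.5 CPM in HCN4F-Sham and from 7.08 to 11.8 CPM in HCN4F-TAC, groups that overlapped, with a log2 fold change of -0.54 (SE 0.28, adjusted p = 0.233). Kcnd3 had a log2 fold change of -0.25 (SE 0.14, adjusted p = 0.283). Kcna4, the pore of the slow transient outward current, was at 0.995 ± 0.758 CPM (SD, n = 4) in HCN4F-Sham and 1.60 ± 0.799 CPM (SD, n = 4) in HCN4F-TAC, with a log2 fold change of 0.69 (SE 0.50, adjusted p = 0.392).

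Kcnip2, the partner that Kv4 channels need for surface expression, did pass. It had 174, 157, 165 and 187 CPM in HCN4F-Sham, 122, 122, 151 and 126 CPM in HCN4F-TAC, 168, 170, 192 and 180 CPM in WT-Sham and 148 and 159 CPM in WT-TAC. The HCN4F groups did not overlap, with replicate 3 of HCN4F-TAC nearest to Sham, and WT-TAC lay below WT-Sham. TAC gave Kcnip2 a log2 fold change of -0.39 (SE 0.08, adjusted p = 0.00501) in HCN4F and -0.21 (SE 0.10, adjusted p = 0.238) in WT.

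The inward rectifiers changed in both directions: of 8 members, 3 passed higher (Kcnj6, kept through HCN4F-TAC alone, among them) and 3 passed lower, and the class median was 0.13. With Kcnj6, 4 members lay above 0 and 4 below, so that without it the class median lies below 0. The 3 that rose were rare transcripts, and the 3 that fell were abundant ones. Kcnj14 encodes Kir2.4. It read 0.602, 0.365, 0.578 and 0.272 CPM in HCN4F-Sham, 1.70, 3.16, 0.918 and 1.95 CPM in HCN4F-TAC, 0.185, 0.544, 1.26 and 0.751 CPM in WT-Sham and 1.31 and 1.17 CPM in WT-TAC. The HCN4F groups did not overlap, while WT-Sham replicate 3 lay between the WT-TAC libraries. Its log2 fold change was 2.1 (SE 0.45, adjusted p = 0.00666) in HCN4F and 0.85 (SE 0.52, adjusted p = 0.355) in WT.

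Kcnj6 encodes Kir3.2, a G protein-gated channel known mainly from neurons. Its raw counts were 0, 1, 0 and 6 in HCN4F-Sham, 10, 21, 10 and 13 in HCN4F-TAC, 3, 2, 1 and 2 in WT-Sham and 3 and 8 in WT-TAC. A count of 0 in replicates 1 and 3 of HCN4F-Sham allows up to 0.107 and 0.109 CPM, for counting error alone. The HCN4F-TAC libraries were at 0.353 to 0.691 CPM, above the others, but they were the only ones with 10 or more counts and so the only ones through which Kcnj6 became a member. Its values are therefore a description. The fitted log2 fold change of 2.90 (SE 0.59, adjusted p = 0.0041) rests on these few counts and was 2.50 to 4.83 when 1 library was left out, the highest without HCN4F-Sham replicate 4, and it was 1.30 (SE 0.79, adjusted p = 0.352) in WT.

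Kcnj15, which encodes Kir4.2 and lies 260 kb from Kcnj6 on chromosome 16, passed the adjusted p with a smaller change. It had 0.602, 1.69, 1.16 and 1.39 CPM in HCN4F-Sham, 2.20, 3.19, 1.45 and 2.28 CPM in HCN4F-TAC, 1.63, 1.56, 1.34 and 1.40 CPM in WT-Sham and 1.44 and 2.20 CPM in WT-TAC. The HCN4F groups overlapped by 1 library each. The log2 fold change was 0.92 (SE 0.27, adjusted p = 0.0325) in HCN4F and 0.32 (SE 0.32, adjusted p = 0.603) in WT, and the HCN4F value passed the adjusted p in 3 of the 8 fits that left out 1 library, with an adjusted p of up to 0.138 (without HCN4F-TAC replicate 2).

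Kcnj3 and Kcnj5 encode Kir3.1 and Kir3.4, which together form the acetylcholine-activated channel of atrium and sinus node. Kcnj3 was at 36.9, 27.8, 30.3 and 37.3 CPM in HCN4F-Sham, 20.8, 12.3, 21.7 and 20.7 CPM in HCN4F-TAC, 39.7, 39.1, 47.1 and 36.4 CPM in WT-Sham and 34.0 and 28.7 CPM in WT-TAC. The HCN4F-TAC libraries lay below all others, and replicate 2, the library with the atrial markers, was the lowest of them. Its log2 fold change was -0.81 (SE 0.16, adjusted p = 0.00338) in HCN4F, -0.65 (the smallest of the leave-one-out values) without HCN4F-TAC replicate 2, and -0.37 (SE 0.19, adjusted p = 0.262) in WT. A lincRNA on the opposite strand, Gm26794, overlaps 31.1% of the Kcnj3 exon bases and had a mean of 2.96 CPM.

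Kcnj5 had 55.1, 45.1, 54.2 and 58.8 CPM in HCN4F-Sham, 35.7, 29.0, 51.3 and 34.9 CPM in HCN4F-TAC, 49.3, 48.4, 56.9 and 43.3 CPM in WT-Sham and 49.6 and 41.0 CPM in WT-TAC. HCN4F-TAC replicate 3 lay within the Sham range and the other 3 below it. The log2 fold change was -0.50 (SE 0.15, adjusted p = 0.0338) in HCN4F and -0.13 (SE 0.18, adjusted p = 0.714) in WT. The HCN4F call is sensitive to single libraries: only 2 of the 8 fits that left out 1 HCN4F library kept an adjusted p under 0.05, and without HCN4F-TAC replicate 2 it was 0.0929.

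Kcnj2 encodes Kir2.1, the main pore of the resting inward rectifier. Its libraries held 47.3, 38.3, 54.9 and 49.2 CPM in HCN4F-Sham, 27.3, 18.9, 41.0 and 23.2 CPM in HCN4F-TAC, 39.3, 31.7, 31.1 and 37.8 CPM in WT-Sham and 29.6 and 41.6 CPM in WT-TAC. Replicate 3 of HCN4F-TAC lay within the Sham range here too. In the fit, Kcnj2 had a log2 fold change of -0.78 (SE 0.21, adjusted p = 0.0233) in HCN4F and 0.03 (SE 0.25, adjusted p = 0.964) in WT. In HCN4F, 3 of the 8 fits that left out 1 library kept an adjusted p under 0.05, and without HCN4F-TAC replicate 3 the log2 fold change was -1.04. Kcnj12, the Kir2.2 pore of the same current, had a log2 fold change of -0.24 (SE 0.14, adjusted p = 0.293).

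HCN4F-TAC replicate 3 also had the lowest fibroblast marker sum of its group, 933 CPM against 1402 to 1556 CPM in the other 3, while HCN4F-Sham had 741 to 964 CPM. Of this list, the collagen genes Col1a1, Col1a2 and Col3a1 passed higher with TAC in HCN4F. Pdgfra, Dcn and Tcf21 did not pass (log2 fold changes of 0.10, 0.10 and 0.06), so the sum does not measure fibroblast content alone. Most ventricular cardiomyocyte markers fell with TAC in HCN4F: 4 of the 6 passed the adjusted p lower and 1 higher, with a median log2 fold change of -0.26. In WT, 2 of the 6 passed lower and 0 higher, with a median of -0.15. Whether the shift of these markers has a part in the smaller changes of cardiomyocyte channel genes such as Kcnip2 was not tested.

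In the auxiliary class, 2 of 11 tested members passed, both lower, with a class median of 0.07. Besides Kcnip2 this was Kcnv2, which encodes Kv8.2, a silent subunit that joins other voltage-gated subunits and is known from photoreceptors. Kcnv2 read 4.86, 5.02, 9.65 and 5.89 CPM in HCN4F-Sham, 1.33, 1.12, 2.68 and 1.95 CPM in HCN4F-TAC, 6.91, 7.25, 7.99 and 6.11 CPM in WT-Sham and 5.83 and 3.55 CPM in WT-TAC. All HCN4F-TAC libraries were below the other 10, and both WT-TAC libraries were below WT-Sham. The fit gave Kcnv2 a log2 fold change of -1.84 (SE 0.28, adjusted p = 0.000749) in HCN4F, 0.278 of the Sham level, and -0.61 (SE 0.31, adjusted p = 0.271) in WT. Kcng2 (0.07, SE 0.11, adjusted p = 0.725) and Kcne1 (-0.12, SE 0.28, adjusted p = 0.826) had log2 fold changes near 0 in HCN4F.

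No KATP, two-pore or calcium- and sodium-activated gene passed with TAC in HCN4F by edgeR or DESeq2, and by edgeR 0, 1 and 2 of them had an unadjusted p under 0.05. With 1 library left out, edgeR passed Kcnk1 (-2.23, without HCN4F-Sham replicate 1), Kcnt1 (-1.87, without HCN4F-TAC replicate 4) and Kcnn3 (0.68, without HCN4F-TAC replicate 3) at the adjusted p, Kcnt1 and Kcnn3 being named after their values were seen. Kcnk1 and Kcnt1 met the count minimum only in Sham libraries, so that the choice of members favoured their fall with TAC. Over all members, 18 (32.1%) had an unadjusted p under 0.05, beside 28.3% of all tested genes. For the KATP pores the log2 fold change was -0.02 (SE 0.09, adjusted p = 0.906) for Kcnj11 and -0.16 (SE 0.10, adjusted p = 0.293) for Kcnj8. The two-pore class median was -0.25. Kcnk3 had 479, 362, 382 and 360 CPM in HCN4F-Sham and 327, 395, 414 and 336 CPM in HCN4F-TAC, groups that overlapped, with a log2 fold change of -0.11 (SE 0.10, adjusted p = 0.511). Kcnk2, the stretch-sensitive TREK-1, had -0.15 (SE 0.18, adjusted p = 0.622). Kcnk1 had a large estimate on few counts: 1 to 14 raw counts in HCN4F-Sham and 1 to 3 in HCN4F-TAC gave -1.87 (SE 0.75, adjusted p = 0.107). Log2 fold changes of the calcium-activated genes were -0.02 (SE 0.10) for Kcnn1, -0.19 (SE 0.18) for Kcnn2 and -0.31 (SE 0.39) for Kcnma1, with adjusted p values of 0.928, 0.538 and 0.651.

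**Figure D4:**
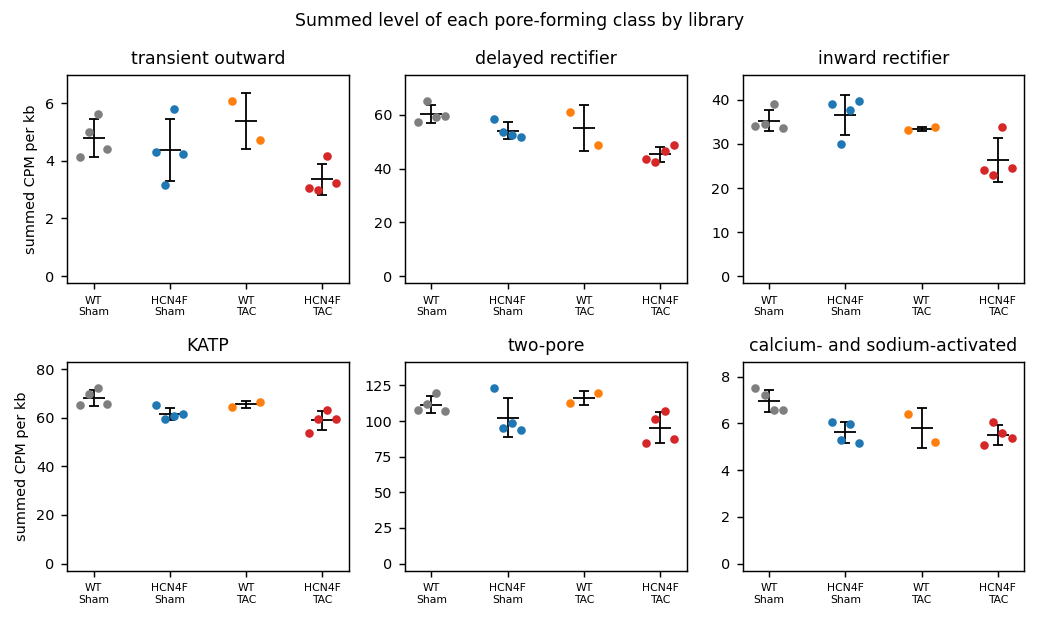
Summed CPM per kb of each pore-forming class (linear axis), 1 point per library, with the mean as a bar and the SD as error bars, in WT-Sham (n = 4), HCN4F-Sham (n = 4), WT-TAC (n = 2) and HCN4F-TAC (n = 4). In the delayed rectifier class the HCN4F-TAC libraries (42.4 to 48.7) lie below the HCN4F-Sham libraries (51.8 to 58.6), and in the other 5 classes these groups overlap.

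Summed over the members of a class, the delayed rectifiers were at 51.8 to 58.6 CPM per kb in HCN4F-Sham and 42.4 to 48.7 CPM per kb in HCN4F-TAC. The inward rectifiers were at 30.0 to 39.8 and 23.0 to 33.8 CPM per kb, and the KATP pores at 59.6 to 65.3 and 53.8 to 63.2 CPM per kb. These sums are descriptions and follow the most abundant genes of each class.

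Partner genes of the channels were listed apart from the Kcn names. Of 13 such genes 9 were tested, and with TAC in HCN4F 1 passed the adjusted p higher and none lower. This was Lrrc55, which encodes an auxiliary subunit of the large-conductance calcium-activated channel (log2 fold change 1.02, adjusted p = 0.0419, and 1.11, adjusted p = 0.127, in WT), at 0.301 to 0.543 CPM in HCN4F-Sham and 0.622 to 1.22 CPM in HCN4F-TAC. The sulfonylurea receptors of the KATP channel had log2 fold changes of -0.07 (Abcc8, adjusted p = 0.527) and -0.21 (Abcc9, adjusted p = 0.212).

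In WT mice no potassium channel gene passed the edgeR test with TAC, either at the adjusted p alone or with the fold threshold, beside 4.54% and 0.706% of all tested genes. At an unadjusted p under 0.05 there were 3 members (5.36%), beside 22% of all tested genes, and DESeq2 called 0 members, with 0 at the adjusted p alone when fitted on all groups and 2 lower (Kcnj3, Kcnv2) when fitted on the WT groups. The median log2 fold change was -0.03 over the members and -0.02 over all tested genes. The 3 members, named after their values were seen, were the rare transcripts Kcnc1, Kcnq5 and Kcnn4. Kcnq5 held 5, 5, 2 and 4 raw counts in WT-Sham and 12 and 19 in WT-TAC, a log2 fold change of 1.83 (SE 0.56, adjusted p = 0.0701). Kcnc1 had a log2 fold change of 1.51 (SE 0.43, adjusted p = 0.055) and Kcnn4 one of -1.44 (SE 0.49, adjusted p = 0.0999), and edgeR fitted on the WT groups alone called all 3. With 2 WT-TAC libraries this comparison is less precise than that in HCN4F, and 11 members lay lower and 5 higher without overlap, beside 20% and 19.2% of all tested genes.

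The TAC responses of the genotypes can be set side by side for the 14 members that passed in HCN4F, since these comparisons share no library. In WT, 12 of the 14 had a log2 fold change of the same sign, with Kcnj2 among the exceptions, beside 90.8% of all genes that passed the adjusted p in HCN4F. Kcnj2 and Kcnj15 change sign in WT without WT-TAC replicate 3 (-0.24 and -0.04). The interaction term of the fit tested whether these responses differed, and no member passed by edgeR or DESeq2 (0 of all 15292 genes by edgeR and 37 genes by DESeq2 on all groups). At an unadjusted p under 0.05 there were 8 members (14.3%), beside 9.27% of all tested genes. Among the 3 smallest interaction p values were those of Kcnh2 (-0.52, SE 0.15, adjusted p = 0.418) and Kcnv2 (-1.24, SE 0.41, adjusted p = 0.455), both with a lower response in HCN4F than in WT. Without HCN4F-TAC replicate 3, the Kcnh2 interaction passed (-0.62, adjusted p = 0.0473), as did 78 of all genes tested in that fit.

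**Figure D5:**
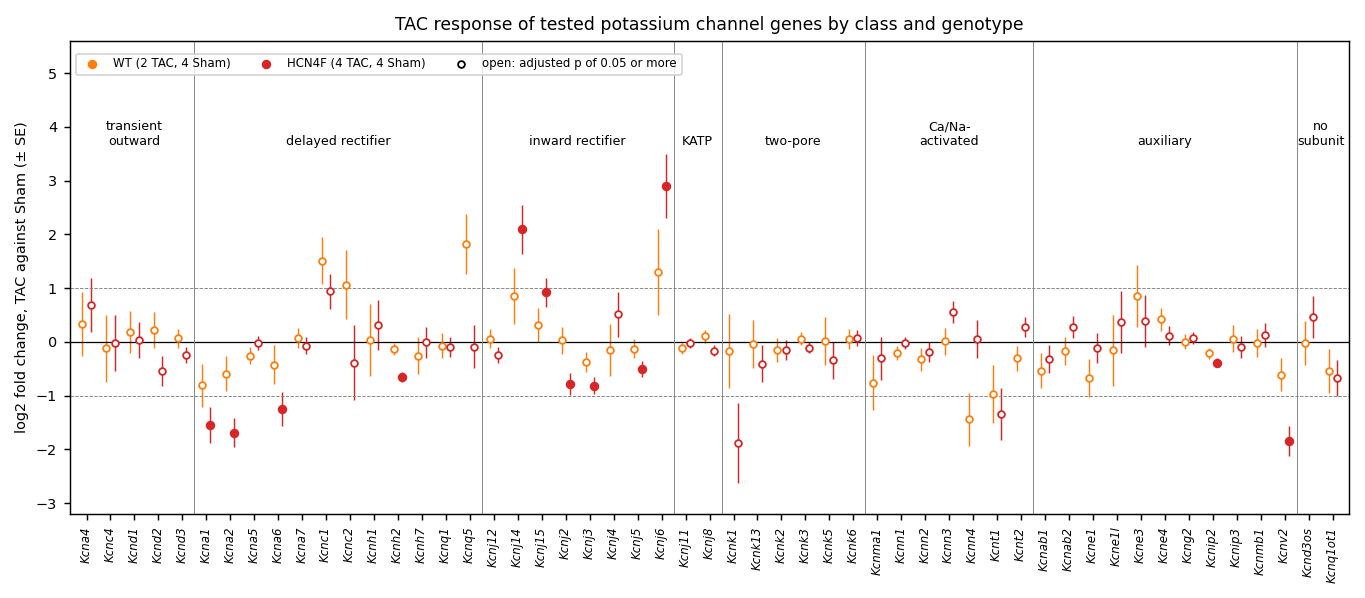
Log2 fold change of TAC against Sham (vertical axis, error bars SE) for 53 of the 56 tested potassium channel genes, by class, in WT (orange, 2 TAC and 4 Sham libraries) and HCN4F (red, 4 and 4 libraries), with filled points for an adjusted p under 0.05 and dashed lines at the fold threshold of 1. The 12 filled points are all red, and none of the WT points is filled.

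Between the genotypes after Sham no member was called by edgeR or DESeq2, beside 0.209% of all tested genes, and 9 members had an unadjusted p under 0.05 (16.1%), beside 15.2% of all tested genes. At the adjusted p alone, DESeq2 fitted on all groups passed Kcna5, Kcnj11 and Kcnn2, all lower in HCN4F, and edgeR passed 0, beside 0.471% of all tested genes. Without HCN4F-Sham replicate 1, edgeR passed 3 members, Kcnj8, Kcnj11 (-0.39) and Kcnn2. Without overlap, 2 members lay higher and 3 lower in HCN4F, beside 3.89% and 4.67% of all tested genes. The median log2 fold change was -0.09 over the members and 0.00 over all tested genes. Kcnn2 (SK2) had 15.7, 17.8, 16.7 and 14.3 CPM in WT-Sham and 14, 8.31, 9.80 and 9.30 CPM in HCN4F-Sham, which did not overlap, with a log2 fold change of -0.64 (SE 0.18, adjusted p = 0.123). Kcnj11 (-0.31, SE 0.09, adjusted p = 0.119) and Kcna5 (-0.45, SE 0.13, adjusted p = 0.136) had the next larger differences for their error among the named genes. Of the 6 ventricular cardiomyocyte markers, 5 were below 0 in this comparison too, with a median of -0.15, and none passed the adjusted p. Whether this has a part in the lower channel values was not tested. Kcnd3os, an antisense transcript of the Kcnd3 locus, had a mean of 0.311 ± 0.061 CPM in HCN4F-Sham and of 0.590 ± 0.132 CPM in WT-Sham (SD, n = 4 each, log2 fold change -0.91, adjusted p = 0.254).

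After TAC, several repolarisation genes had lower values in HCN4F than in WT, but edgeR called no member and passed none at the adjusted p alone, beside 0.0719% and 0.111% of all tested genes. At an unadjusted p under 0.05 there were 16 members (28.6%), 4 higher and 12 lower, beside 12.5% of all tested genes, of which 7.45% were higher and 5% lower. The median log2 fold change was -0.15 over the members and 0.00 over all tested genes. Kcnv2 was the nearest to a call, at 4.69 ± 1.61 CPM (SD, n = 2) in WT-TAC and 1.77 ± 0.705 CPM (SD, n = 4) in HCN4F-TAC, a log2 fold change of -1.39 (SE 0.33, adjusted p = 0.11), and DESeq2 fitted on all groups called it (adjusted p = 0.00371) and also passed Kcnh2 and Kcnj3 at the adjusted p alone (adjusted p = 0.0176 and 0.017). Kcnh2 (-0.48, SE 0.12, adjusted p = 0.11) and Kcnj3 (-0.73, SE 0.19, adjusted p = 0.129) followed. Kcnd2 (-0.93, SE 0.33, adjusted p = 0.269), Kcnd3 (-0.47, SE 0.17, adjusted p = 0.262) and Kcnk3 (-0.30, SE 0.12, adjusted p = 0.32) were lower in every HCN4F-TAC library than in both WT-TAC libraries and did not pass. Without overlap, 10 members lay lower and 5 higher, beside 11% and 11.3% of all tested genes. The ventricular cardiomyocyte markers were lower in HCN4F-TAC too, all 6 below 0 with a median log2 fold change of -0.20. The fibroblast marker median was 0.63, and no marker of either list passed the adjusted p. Whether these marker shifts have a part in the lower channel values was not tested.

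Promoters are shown for 3 abundant members that fell together with TAC in HCN4F, as the 150 bases before the gene start in RefSeq on GRCm38.p6, 5′ to 3′ on the strand of the gene. Of the 57 members 42 matched an entry, and of the 14 that passed 9 did. Capitals mark the GC box, GGGCGG or its reverse complement, which 28.6% of all promoters in the table hold in this window. Some members have several promoters in the table, and 20 of the members' 58 windows (34.5%) hold one.
Kcnh2: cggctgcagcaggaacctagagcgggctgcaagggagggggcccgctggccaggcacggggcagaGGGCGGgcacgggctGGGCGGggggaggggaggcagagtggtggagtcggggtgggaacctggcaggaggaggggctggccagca
Kcnip2: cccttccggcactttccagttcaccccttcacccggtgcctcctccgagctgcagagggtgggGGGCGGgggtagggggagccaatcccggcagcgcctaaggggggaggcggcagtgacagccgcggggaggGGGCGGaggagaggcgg
Kcnj2: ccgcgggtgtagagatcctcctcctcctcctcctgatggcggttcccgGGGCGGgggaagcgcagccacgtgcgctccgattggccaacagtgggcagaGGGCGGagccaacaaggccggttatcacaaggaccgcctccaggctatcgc

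The windows are chr5:24329592-24329741 on the minus strand for Kcnh2, chr19:45816064-45816213 on the minus strand for Kcnip2 and chr11:111066014-111066163 on the plus strand for Kcnj2. They hold 75.3%, 73.3% and 67.3% G and C, beside a median of 54% over all promoters. Each has 2 GC boxes, starting 85 and 70 bases before the start in Kcnh2, 87 and 17 in Kcnip2, and 102 and 51 in Kcnj2. Of the 9 matched members that passed, 5 held a GC box in a window (these 3, Kcnj5 and Kcnj6) and 4 held none (Kcna2, Kcna6, Kcnj3 and Kcnj15). Of these windows with a box, those of Kcnh2 and Kcnj6 lie inside the gene as GENCODE draws it, which reaches 21.9 kb and 141 kb further upstream, and the Kcnj6 window at the gene start holds none. None of the 42 matched members held a TATA box (TATAAA) or a CRE (TGACGTCA) on either strand in this window, beside 7.57% and 1.36% of all promoters.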

How the data were processed

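The deposited table holds raw read counts per gene made by the authors from poly(A)-selected left ventricular RNA on an Illumina platform. Per the submitters' processing notes the build was GRCm38. The aligner, counter, annotation release and strand setting are not given in the sources used here. Of the per-sample columns, 2 matched no labelled sample and were not used. Libraries were grouped by their labels. Counts of all 49315 genes were fitted with edgeR 4.0.16 in R 4.3.3 (filterByExpr, TMM, robust quasi-likelihood, 1 mean per group over 14 libraries), and p-values were adjusted by Benjamini-Hochberg over 15292 tested genes. A gene was called at an adjusted p under 0.05 and a log2 fold change past 1, and an interaction at the adjusted p alone. DESeq2 1.42.0, other scalings, filters, a block and leaving out each library were alternatives. The SE of a log2 fold change was derived from the same fit, as the size of the change divided by the square root of its F statistic. Exon lengths and coordinates come from GENCODE release 21 (GRCm38), which held all 57 members. Scripts were tested on simulated data. Replicates differed by more than counting noise (chi-square per gene at least 6.59). Named genes were those that passed the adjusted p anywhere, a list of repolarisation genes, the highest members overall and per class, and the 3 smallest interaction p values. The values of some members and marker genes are not reported here. The members and lists were chosen with earlier results of these data known.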

Additional observations from a re-analysis of the deposited data

Results flagged for a closer look

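Within groups of 4 libraries, a library was set apart where its gap to the next exceeded Dixon's limit, and chance does this in about 1 of 20 groups. Of 87 groups of the 29 named genes 4 were set apart. Kcnj3 was low in HCN4F-TAC replicate 2 (12.3 CPM, against 20.7 to 21.7 CPM in the others), and Kcnip2 was high in HCN4F-TAC replicate 3 (151 CPM, against 122 to 126 CPM). Kcnj11 was high in HCN4F-Sham replicate 1 (179 CPM, against 141 to 146 CPM), and Kcnd3os was low in WT-Sham replicate 4 (0.392 CPM, against 0.650 to 0.665 CPM). Without the library concerned, the TAC change of Kcnj3 and that of Kcnip2 in HCN4F still passed the adjusted p, and without HCN4F-Sham replicate 1 the difference of Kcnj11 between the genotypes after Sham was -0.39 and passed it.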

How the results depend on the processing

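With TAC in HCN4F, 6 members were called, 5 to 6 under the other tests, scalings and filters, 5 to 8 when 1 library was left out, and 14 at the adjusted p alone. DESeq2 on all groups gave no adjusted p for Kcnj6. In WT, where 0 were called, edgeR on the compared groups called 3 (Kcnc1, Kcnn4, Kcnq5) and the fit with no filter called 2, with 0 in every leave-one-out fit. Between the genotypes after Sham, the fit with no filter called 1 (Kcnq5) and leave-one-out fits 0. After TAC, both DESeq2 fits called 1 (Kcnv2), and leave-one-out fits 0 to 1 (1 without HCN4F-TAC replicate 3). Singly left out, libraries also brought named genes past the call: Kcnk1, a member through Sham libraries alone, without HCN4F-Sham replicate 1 (-2.23), Kcnj15 without HCN4F-Sham replicate 2 or 4 or HCN4F-TAC replicate 3 (1.01 to 1.10), Kcnj2 without HCN4F-TAC replicate 3 (-1.04) and, between the genotypes, Kcnv2 without HCN4F-TAC replicate 3 (-1.67). The interaction count was 0 to 1 in leave-one-out fits. A minimum of 10 counts in 4 libraries kept 52 of the 57 members. Replicate numbers did not pair the samples (correlations of same-numbered libraries from -0.12 to 0.16). With the replicate number as a block, 6 members were called with TAC in HCN4F, 1 (Kcnq5) in WT and 0 in the other comparisons.

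Of 145 values of named genes (log2 fold changes and interactions), 42 took both signs when 1 library was left out, 28 of them by moving less than their SE. The ranges of the other 14, none of them called, were, with TAC in WT, -0.043 to 0.57 for Kcnj15, -0.24 to 0.25 for Kcnj2, -0.080 to 0.27 for Kcnj8, -0.84 to 0.073 for Kcnn2 and -0.34 to 0.16 for Kcnq1. With TAC in HCN4F they were -0.066 to 0.067 for Kcnj11, -0.55 to 0.13 for Kcnma1 and -0.24 to 0.18 for Kcnq1. Between the genotypes they were -0.41 to 0.27 for Kcnma1 after Sham and -0.45 to 0.046 for Kcna5, -0.18 to 0.16 for Kcnj8, -0.90 to 0.013 for Kcnn2 and -0.38 to 0.11 for Kcnq1 after TAC, and the Kcnn2 interaction was -0.26 to 0.65. The cause was not tested, beyond the fewer libraries in each fit. Depth limits the rare genes: 19 members had a mean under 1 CPM, and the WT-TAC group had 2 libraries.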
